A study of Mus musculus with 30 samples.

Results

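The genes described here encode the subunits of respiratory chain complexes I, III and IV and of the ATP synthase. They were taken by gene symbol from the annotation of the array: Nduf followed by a, b, c, s or v, and Uqcr, Cox4, Cox5, Cox6, Cox7, Cox8 or Atp5. The symbols caught 101 probes of 82 genes, and 72 of these genes had a probe detected on at least 15 of the 30 arrays, among 7905 genes with a detected probe and 16593 genes in the annotation. The rule itself uses no measured difference, but it was chosen with earlier results of these data known. Of the 72 genes, 65 encode subunits (32 of complex I, 6 of complex III, 12 of complex IV and 15 of the ATP synthase) and 7 share the prefixes without being subunits.

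Liver RNA of 15 SA_15% mice and 15 Ctrl mice was hybridised to Illumina MouseRef-8 BeadChips, 1 liver per array. All mice were male db/db mice of the strain BKS.Cg-m+/+Leprdb/J, which lack a functional leptin receptor and become obese and diabetic, and entered the study at 6 to 8 weeks of age. SA_15% mice ate chow that carried sebacic acid, a medium-chain dicarboxylic acid, at 77.6 g per kg of food (15% of energy) for 6 weeks. Ctrl mice ate the chow without it, and both groups were fasted before they were killed. With no lean mice and no other tissue, the arrays compare 2 diets within 1 diabetic model.

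Complex I takes electrons from NADH, complex III passes them to cytochrome c, and complex IV hands them to oxygen. The protons pumped on the way drive the ATP synthase, whose F1 head makes ATP and is held by a peripheral stalk. A ring of c subunits turns the central stalk inside the head. The subunits come from both the nuclear and the mitochondrial genome, and the liver uses the chain to burn fatty acids and to power gluconeogenesis. The array names none of the subunits encoded in mitochondrial DNA, so everything below concerns nuclear genes.

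Values are quantile normalized log2 signals, differences are SA_15% minus Ctrl with a standard error (SE), and a gene was called when the adjusted p of limma, over all 11329 detected probes, was under 0.05. Where a gene had several detected probes, the brightest stands for it. Arrays of a group correlated at 0.983 to 0.996, with 11213 to 11783 probes detected on SA_15% arrays and 10984 to 11697 on Ctrl arrays. Precision is limited by how many livers there were. The p-values set a difference against the spread between livers, which limma moderates over all detected probes. Which arrays shared a BeadChip is not given in the sources used here, so this batch was not tested. RNA was taken from whole liver, where fewer cells of a type and less RNA per cell cannot be told apart.

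The differences of the subunit genes lay mostly a little below 0. Of 65, 29 were called lower (44.6%), against 19.4% of all detected probes, and 2 were called higher (3.08%), against 17.1% of all detected probes. The other 34 were not called. The median difference was -0.09 for the subunit genes and -0.01 for all detected probes, and 57 of 65 differences were below 0. No subunit gene separated the groups completely, which 65 of the 11329 detected probes did. Differences ran between -0.51 and 0.19, and at the lowest, in Ndufb9 and Atp5e, the signal fell by 29.9%.

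Genes called lower occurred in each complex. Complex I had 14 genes called lower, 1 higher and 17 not called, with a median difference of -0.08. In complex III 3 were lower and 3 not called (median -0.07), and in complex IV 6 were lower and 6 not called (median -0.11). In the ATP synthase 6 were lower, 1 higher and 8 not called (median -0.08). The shares called lower were 43.8% in complex I, 50% in complex III, 50% in complex IV and 40% in the ATP synthase, against 19.4% of all detected probes. Those called higher were 3.12% in complex I and 6.67% in the ATP synthase, against 17.1% of all detected probes. No difference between complexes was tested.

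**Figure D1:**
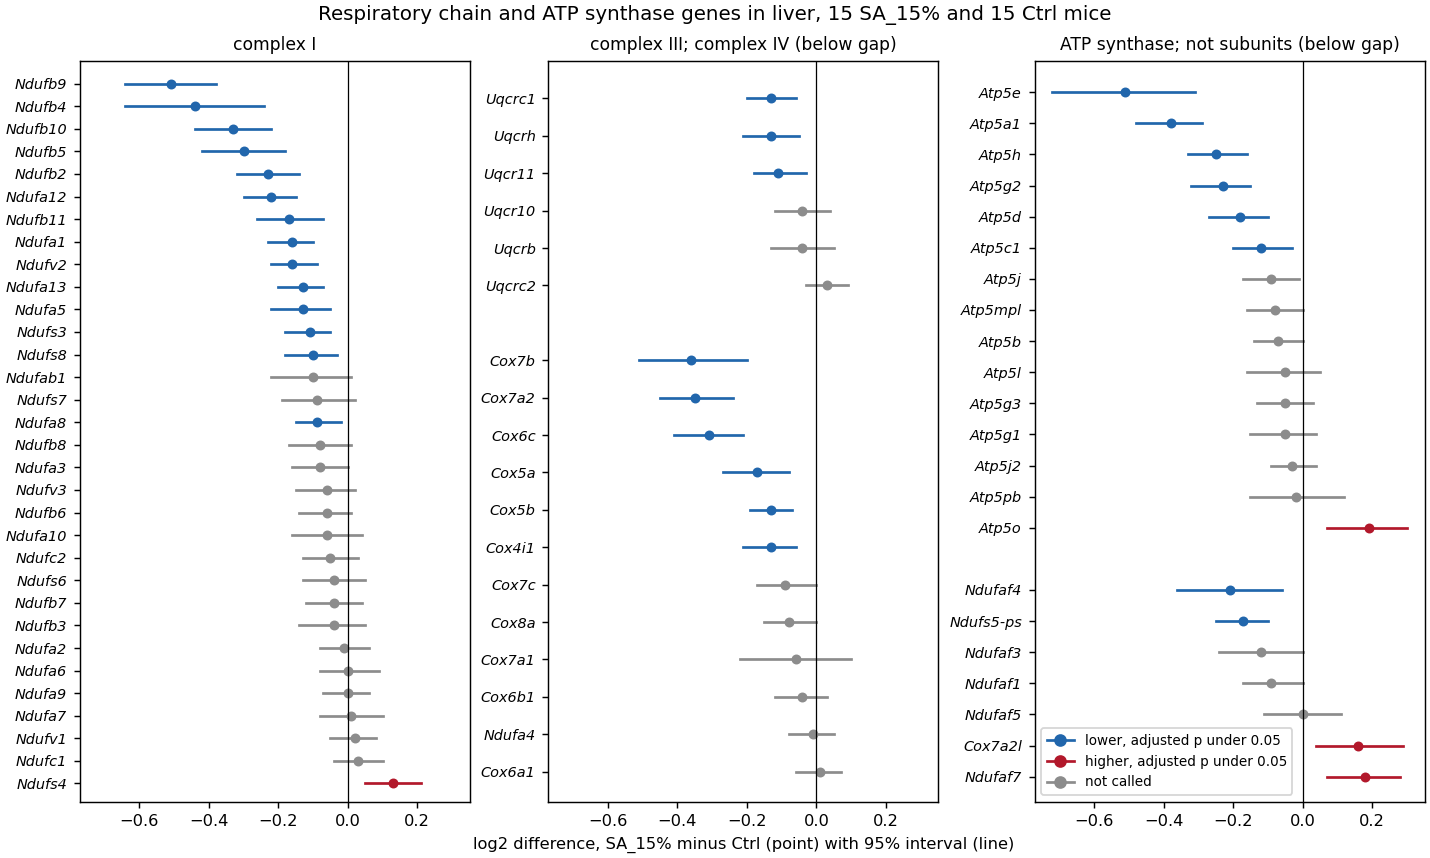
Log2 difference, SA_15% minus Ctrl, on the x axis for the 72 detected genes (rows), with 95% intervals from limma as lines; blue genes were called lower, red genes higher and grey genes not called. Most points lie left of 0, between -0.51 and 0.19, and blue points occur in all 4 complexes.

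The scaling of the arrays set how many were called. With each array merely centred on the median of all its 25697 probes, detected or not, 50 subunit genes were called lower and 0 higher. Their median difference was then -0.2. All detected probes moved too under that scaling: 27.1% were lower and 6.79% higher, the median was -0.07, and increases made up 20.1% of all calls, against 46.9% after quantile normalization. Differences below are from quantile normalization, which the methods of the study used.

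**Figure D2:**
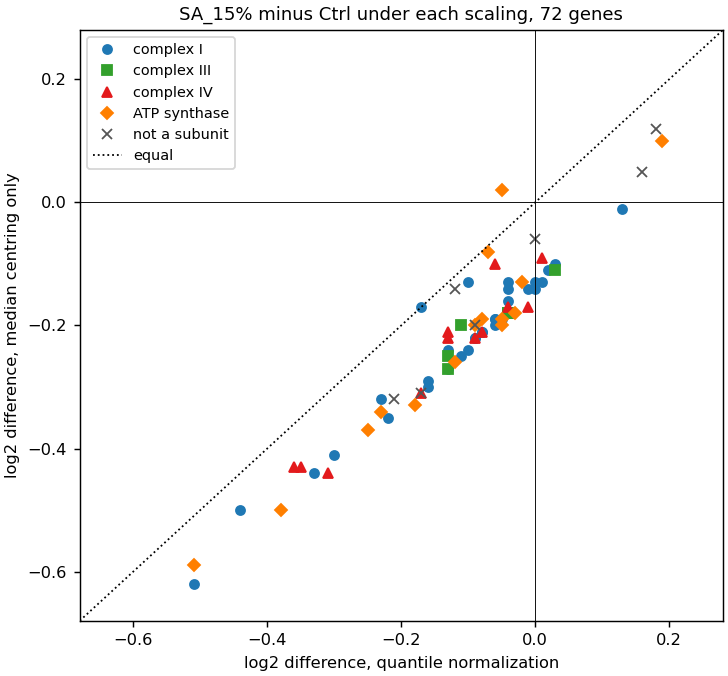
Log2 difference, SA_15% minus Ctrl, of each of the 72 genes after quantile normalization (x axis) and after median centring only (y axis), with symbols for the complexes and a dotted line of equal values. Most points lie below the line, and the median of the 65 subunit genes is -0.09 on the x axis and -0.2 on the y axis.

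Nuclear subunit genes are known to be driven by NRF1, by ETS factors such as GABP and by the estrogen-related receptors. The 250 bases upstream of the annotated start, from RefSeq (GRCm38.p6), were at hand for 57 of the 65 subunit genes and were searched on both strands for TGCGCA (NRF1 half-site), CCGGAA (ETS core) and AAGGTCA (ERR half-site). None of these letter strings contains another. TGCGCA was present in 19.3% of the subunit genes, against 7.36% of 27025 genes with such a window. CCGGAA was present in 31.6% of the subunit genes, against 13.6% of all, and AAGGTCA in 7.02%, against 4.7% of all. Among the 25 subunit genes called lower, 16% held TGCGCA, 24% CCGGAA and 8% AAGGTCA. Among the 30 not called, 23.3% held TGCGCA, 36.7% CCGGAA and 6.67% AAGGTCA, so only AAGGTCA, with 2 genes in each set, had the higher share among the genes called lower. None of these shares was tested. A match is a string of letters and not a shown binding site.

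The following 5 windows are shown because each belongs to a gene called in this comparison. Per complex and direction, each is the gene of smallest p whose window holds a match, with no such gene for the increase in complex I. They are written 5′ to 3′ along the gene, and capitals mark the match on either strand: AAGGTCA in Ndufb2, and TTCCGG, the ETS core read from the other strand, in the other windows. The genes of the first 4 windows were called lower and Atp5o was called higher.
Ndufb2 (chr6:39592315-39592564, plus strand): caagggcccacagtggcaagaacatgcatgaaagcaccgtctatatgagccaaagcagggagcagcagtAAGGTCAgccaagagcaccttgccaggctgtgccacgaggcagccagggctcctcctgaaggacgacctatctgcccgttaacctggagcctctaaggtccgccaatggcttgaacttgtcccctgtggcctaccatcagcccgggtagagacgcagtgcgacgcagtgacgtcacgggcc
Uqcrh (chr4:116075071-116075320, minus strand): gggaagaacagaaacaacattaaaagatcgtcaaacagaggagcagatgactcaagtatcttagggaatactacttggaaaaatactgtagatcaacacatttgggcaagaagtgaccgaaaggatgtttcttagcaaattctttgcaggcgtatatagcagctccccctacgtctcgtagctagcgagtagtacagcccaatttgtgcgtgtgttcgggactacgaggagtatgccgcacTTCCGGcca
Cox7a2 (chr9:79759854-79760103, minus strand): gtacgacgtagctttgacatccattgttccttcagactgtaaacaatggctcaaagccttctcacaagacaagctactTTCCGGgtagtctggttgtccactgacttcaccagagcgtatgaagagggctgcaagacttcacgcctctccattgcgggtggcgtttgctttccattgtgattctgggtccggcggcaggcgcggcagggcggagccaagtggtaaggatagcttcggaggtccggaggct
Atp5h (chr11:115419920-115420169, minus strand): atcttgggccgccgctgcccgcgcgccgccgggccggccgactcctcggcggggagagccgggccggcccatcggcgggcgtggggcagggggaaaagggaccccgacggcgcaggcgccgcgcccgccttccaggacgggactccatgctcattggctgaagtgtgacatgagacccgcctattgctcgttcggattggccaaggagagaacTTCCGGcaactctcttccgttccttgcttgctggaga
Atp5o (chr16:91931631-91931880, minus strand): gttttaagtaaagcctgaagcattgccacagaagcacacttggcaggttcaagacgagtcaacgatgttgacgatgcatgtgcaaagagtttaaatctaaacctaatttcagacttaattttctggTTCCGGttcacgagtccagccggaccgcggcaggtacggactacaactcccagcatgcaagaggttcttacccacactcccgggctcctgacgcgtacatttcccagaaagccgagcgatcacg

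Among complex I genes, 3 of the 5 core subunits detected were called lower: Ndufv2, Ndufs3 and Ndufs8, all of the matrix arm that takes up electrons from NADH and passes them on. Ndufv2 differed by -0.16, Ndufs3 by -0.11 and Ndufs8 by -0.10. The core subunits Ndufs7 (-0.09) and Ndufv1 (0.02) were not called. Of the 27 accessory subunits, which surround the core, 11 were called lower and 1 higher. The shares called lower were 60% of the core and 40.7% of the accessory subunits, against 19.4% of all detected probes. Of the accessory subunits 3.7% were called higher, against 17.1% of all detected probes.

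Ndufb9, an accessory subunit of the membrane arm, had the largest difference in complex I. Its lowest, median and highest log2 signals were 9.04, 9.29 and 9.53 in SA_15% livers, against 9.36, 9.78 and 10.1 in Ctrl livers. All 15 SA_15% livers lay below the Ctrl median and 10 lay below every Ctrl liver. The difference was -0.51 (SE 0.064, adjusted p = 2.5e-07), a signal that fell by 29.9%.

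Ndufb10, also of the membrane arm, was at 8.95, 9.13 and 9.4 in SA_15% livers, against 9.16, 9.49 and 9.81 in Ctrl livers, a difference of -0.33 (SE 0.053, adjusted p = 1.1e-05). Ndufb2, a small membrane arm subunit, was at 8.11, 8.3 and 8.47 in SA_15% livers, against 8.33, 8.55 and 8.75 in Ctrl livers, a difference of -0.23 (SE 0.044, adjusted p = 0.0001). In both genes every SA_15% liver lay below the Ctrl median, and the groups overlapped. Ndufa12, an accessory subunit of the matrix arm, was at 10.37, 10.57 and 10.82 in SA_15% livers, against 10.7, 10.81 and 10.95 in Ctrl livers. The difference was -0.22 (SE 0.036, adjusted p = 1.3e-05), with 13 SA_15% livers below every Ctrl liver and 1 above the Ctrl median. Further accessory subunits called lower were Ndufb4 (-0.44), Ndufb5 (-0.30), Ndufa1 (-0.16), Ndufa13 (-0.13), Ndufa5 (-0.13) and Ndufa8 (-0.09). Ndufb11 was called lower too (-0.17), but its probe was detected on 4 of 15 SA_15% arrays and 13 of 15 Ctrl arrays, so it passed the detection filter through the Ctrl livers. Its size is uncertain so near background (-0.31 with neqc background correction), and 28 subunit genes, 13 of them in complex I, were called lower among those detected on all 30 arrays. Ndufa8 stood at the threshold (adjusted p = 0.046) and lost its call when 17 of the 30 arrays were left out one at a time. The call was also lost with neqc background correction (adjusted p = 0.0702), no detection filter (0.0585) and array weights (0.0659). It was lost too with the error pooled over probes of like signal (0.203) and with the mean over its probes (0.0553). The other detected probe of Ndufa8 was not called (-0.06, adjusted p = 0.24).

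The accessory subunits not called lay between -0.10 for Ndufab1, the mitochondrial acyl carrier protein, and 0.03 for Ndufc1. Ndufa9, a subunit at the joint of the arms, had the tightest signals of all subunit genes in Ctrl livers (SD 0.05). Its SA_15% signals were 12.01, 12.1 and 12.34, against 12.08, 12.14 and 12.24 in Ctrl livers, and the 95% interval of the difference was -0.07 to 0.06. Ndufa6 (interval -0.08 to 0.09) and Ndufa2 (interval -0.08 to 0.06) were not called either.

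Ndufs4, an accessory subunit of the matrix arm whose loss causes complex I deficiency, was the only complex I gene called higher, and that call rested on 1 of its 4 probes. The brightest probe was at 11.51, 11.72 and 11.78 in SA_15% livers, against 11.37, 11.56 and 11.7 in Ctrl livers, a difference of 0.13 (SE 0.039, adjusted p = 0.0089) that became -0.01 with median centring only. The next probe was at 10.91, 11.17 and 11.47 in SA_15% livers, against 11.21, 11.4 and 11.56 in Ctrl livers, a difference of -0.21 (SE 0.045, adjusted p = 0.00048). The dimmest was at 9.58, 9.91 and 10.1 in SA_15% livers, against 10.02, 10.15 and 10.58 in Ctrl livers, a difference of -0.33 (SE 0.052, adjusted p = 9.5e-06). The remaining probe differed by -0.07 and was not called. Ndufs4 therefore has no settled direction on this array.

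Such disagreement was not limited to Ndufs4. Of 11 genes with several detected probes, calls differed between probes in 6, and the dimmest probe had the lower difference in 8. In Ndufc1, a small accessory subunit, the brightest probe differed by 0.03 (adjusted p = 0.48) and the other by -0.32 (adjusted p = 6.1e-08). That second probe was at 9.75, 9.9 and 10.02 in SA_15% livers, against 9.98, 10.24 and 10.36 in Ctrl livers, with 14 SA_15% livers below every Ctrl liver. Ndufb6, a membrane arm subunit, gave -0.06 (not called) and -0.27 (adjusted p = 0.00059). Ndufv3, of the NADH-binding part, gave -0.06, -0.17 and -0.03, of which -0.17 was called (adjusted p = 0.0047). Ndufa5 was lower by both its probes, at -0.13 and -0.36. Over all 86 detected probes of the 72 genes, 38 were called lower and 4 higher.

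**Figure D3:**
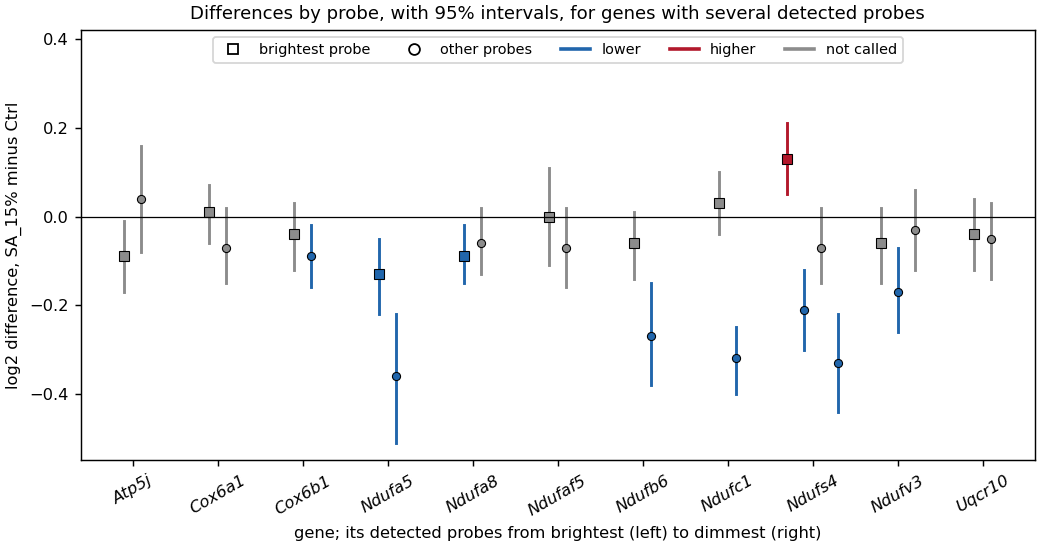
Log2 difference, SA_15% minus Ctrl, with 95% intervals (y axis) for each detected probe of the 11 genes with several, ordered within a gene (x axis) from the brightest probe (square) to the dimmest. The 4 probes of Ndufs4 lie on both sides of 0, and the second probe of Ndufc1 lies at -0.32, against 0.03 for its brightest.

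The calls were also counted by the brightness of the probe. With a mean log2 signal under 8, 3 of 5 subunit genes were called lower, and from 8 to 10, 7 of 9 were. From 10 to 12 it was 10 of 21, and at 12 or above 9 of 30. The 3 under 8 include Ndufb11, which passed the detection filter through the Ctrl livers (detected on 4 SA_15% and 13 Ctrl arrays). Over all detected probes the shares called lower in these ranges were 17.4%, 22.3%, 22.2% and 24.1%. The median difference of the subunit genes was -0.3 from 8 to 10 and -0.07 at 12 or above. Whether these shares differ was not tested.

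In complex III, Uqcrc1, a core subunit facing the matrix, was at 11.47, 11.58 and 11.75 in SA_15% livers, against 11.51, 11.69 and 11.87 in Ctrl livers. The groups overlapped widely, and the difference was -0.13 (SE 0.035, adjusted p = 0.0033). Uqcrh, the hinge protein that helps cytochrome c dock, was at 12.77, 12.92 and 13.11 in SA_15% livers, against 12.86, 13.02 and 13.29 in Ctrl livers (difference -0.13, SE 0.039, adjusted p = 0.009). Uqcr11, a small subunit, was at 13.1, 13.25 and 13.39 in SA_15% livers, against 13.17, 13.37 and 13.49 in Ctrl livers (difference -0.11, SE 0.036, adjusted p = 0.02). It lost its call when the error was pooled over probes of like signal (adjusted p = 0.0648). Uqcrc2, the other core subunit that the symbols caught and the filter kept, differed by 0.03 (interval -0.03 to 0.09), and Uqcr10 and Uqcrb each by -0.04. Cytochrome c1 (Cyc1), also a complex III subunit, was not caught by the symbols and is given with the electron carriers below.

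In complex IV, Cox7a2, the form of subunit 7a that the liver uses, was at 8.12, 8.32 and 8.47 in SA_15% livers, against 8.34, 8.64 and 9.02 in Ctrl livers. Every SA_15% liver lay below the Ctrl median, and the difference was -0.35 (SE 0.053, adjusted p = 6.7e-06). Cox6c, a small membrane subunit, was at 12.39, 12.66 and 12.86 in SA_15% livers, against 12.75, 12.99 and 13.18 in Ctrl livers, with 10 SA_15% livers below every Ctrl liver. The difference was -0.31 (SE 0.05, adjusted p = 1.5e-05), the lowest among the 30 subunit genes with a mean log2 signal of 12 or above. Cox7b, also a small membrane subunit, was at 7.29, 7.76 and 8.05 in SA_15% livers, against 7.67, 8.04 and 8.36 in Ctrl livers (difference -0.36, SE 0.076, adjusted p = 0.00048). It had the widest spread of all subunit genes in SA_15% livers (SD 0.24). Cox5b, the zinc-binding subunit, was at 12.92, 13.08 and 13.21 in SA_15% livers, against 13.08, 13.21 and 13.32 in Ctrl livers (difference -0.13, SE 0.03, adjusted p = 0.0011). Cox5a (-0.17) was also called lower.

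Several complex IV subunits exist as a common form and as a form of heart, muscle, lung or testis. Cox4i1, the common form of subunit 4, was at 12.97, 13.07 and 13.27 in SA_15% livers, against 13.07, 13.19 and 13.41 in Ctrl livers (difference -0.13, SE 0.038, adjusted p = 0.0055). Cox8a was at 12.55, 12.77 and 12.88 in SA_15% livers, against 12.69, 12.82 and 12.99 in Ctrl livers, and was not called (difference -0.08, adjusted p = 0.09). With median centring only Cox8a (-0.21) and Cox6b1 (-0.17) were called lower. Cox6b1 (-0.04) was not called by its brightest probe and was called lower by its other (-0.09, adjusted p = 0.048). Cox6a1, the liver form of subunit 6a, differed by 0.01 (interval -0.06 to 0.07), a difference whose sign turned with median centring only. Cox7a1, the heart and muscle form of subunit 7a, was dim, at 6.43, 6.76 and 7.08 in SA_15% livers, against 6.41, 6.77 and 7.52 in Ctrl livers, and was not called (difference -0.06, adjusted p = 0.57). Ndufa4, named for complex I but placed in complex IV, differed by -0.01, and Cox7c by -0.09, neither called. The forms Cox4i2, Cox6b2, Cox7b2, Cox8b and Cox8c were detected on 0 arrays, and Cox6a2, the muscle form of subunit 6a, on 4 SA_15% arrays and 0 Ctrl arrays.

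In the F1 head of the ATP synthase, 4 of 5 subunits were called lower (80%, against 19.4% of all detected probes), with a median difference of -0.18. Atp5a1, the alpha subunit, was at 10.09, 10.31 and 10.54 in SA_15% livers, against 10.5, 10.72 and 10.87 in Ctrl livers. The groups barely overlapped, with 13 of 15 SA_15% livers below every Ctrl liver, and the difference was -0.38 (SE 0.047, adjusted p = 2.1e-07). Atp5e, the epsilon subunit of the central stalk, was at 7.56, 7.98 and 8.25 in SA_15% livers, against 7.9, 8.38 and 9.27 in Ctrl livers. The difference was -0.51 (SE 0.1, adjusted p = 0.00016), and the Ctrl livers had the widest spread of all subunit genes (SD 0.36). The other central stalk subunits, Atp5d (delta, -0.18) and Atp5c1 (gamma, -0.12), were called lower as well. Atp5b, the catalytic beta subunit, was not called (-0.07, adjusted p = 0.1), though 14 SA_15% livers lay below the Ctrl median.

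**Figure D4:**
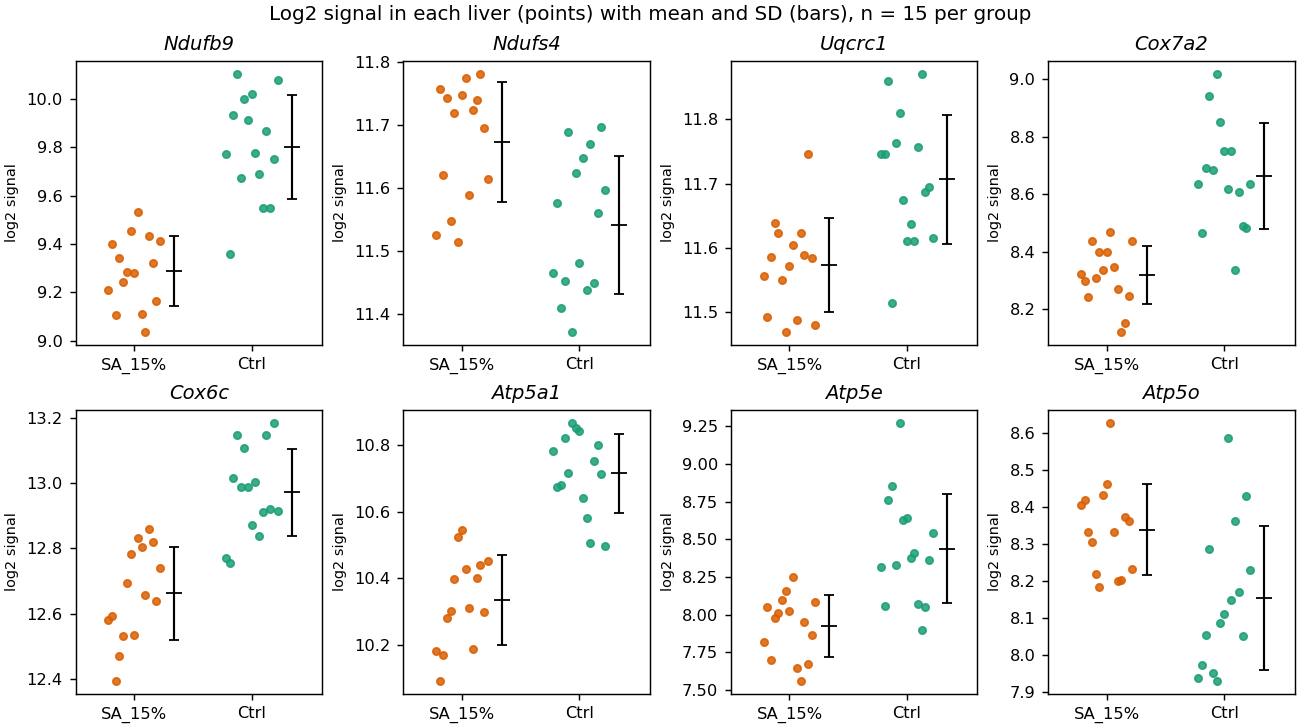
Log2 signal (y axis, a separate range per gene) in each of the 15 SA_15% and 15 Ctrl livers (points), with the group mean and SD (bars), for 8 genes of complexes I, III and IV and the ATP synthase. SA_15% livers are low in Ndufb9, Uqcrc1, Cox7a2, Cox6c, Atp5a1 and Atp5e and high in Ndufs4 (brightest probe) and Atp5o, and the groups overlap in all 8.

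In the peripheral stalk the calls pointed both ways. Atp5h, subunit d of the stalk, was at 10.51, 10.73 and 10.9 in SA_15% livers, against 10.81, 10.94 and 11.13 in Ctrl livers, with 11 SA_15% livers below every Ctrl liver. Its difference was -0.25 (SE 0.042, adjusted p = 3e-05). Atp5o, the protein that joins the stalk to the F1 head, was at 8.18, 8.33 and 8.63 in SA_15% livers, against 7.93, 8.11 and 8.59 in Ctrl livers. All 15 SA_15% livers lay above the Ctrl median, and the difference was 0.19 (SE 0.058, adjusted p = 0.012). With median centring only it was 0.10 and no longer called (adjusted p = 0.161). The stalk subunits Atp5j (-0.09) and Atp5pb (-0.02) were not called.

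The c ring is built from 1 mature protein that is made from several genes. Atp5g2 was at 9.57, 9.79 and 9.98 in SA_15% livers, against 9.76, 10.09 and 10.15 in Ctrl livers, and was called lower (difference -0.23, SE 0.042, adjusted p = 5.6e-05). Atp5g1 was at 12.6, 12.77 and 12.99 in SA_15% livers, against 12.55, 12.82 and 13.09 in Ctrl livers (difference -0.05, adjusted p = 0.39). With median centring only Atp5g1 was at -0.19 and called lower (adjusted p = 0.0197). Atp5g3 was at 14.36, 14.6 and 14.71 in SA_15% livers, against 14.46, 14.65 and 14.89 in Ctrl livers (difference -0.05, adjusted p = 0.36, and 0.02 with median centring only). Whether the change of Atp5g2 differed from those of its partners was not tested. The small membrane subunits Atp5mpl, Atp5l and Atp5j2 lay between -0.08 and -0.03 and were not called.

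The mean over the subunit genes of a liver, each gene set relative to its Ctrl mean, showed how the shift was spread over the animals. It lay between -0.18 and -0.04 in SA_15% livers (median -0.11), against -0.09 to 0.09 in Ctrl livers, so the groups overlapped. All 15 SA_15% livers lay below the Ctrl median in the subunit mean and in complex I, complex IV and the ATP synthase, and 13 did in complex III. Over livers the SD of this mean was 0.049 in SA_15% livers and 0.046 in Ctrl livers. Gene by gene, the SD over livers had a median of 0.10 in SA_15% livers and 0.12 in Ctrl livers.

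**Figure D5:**
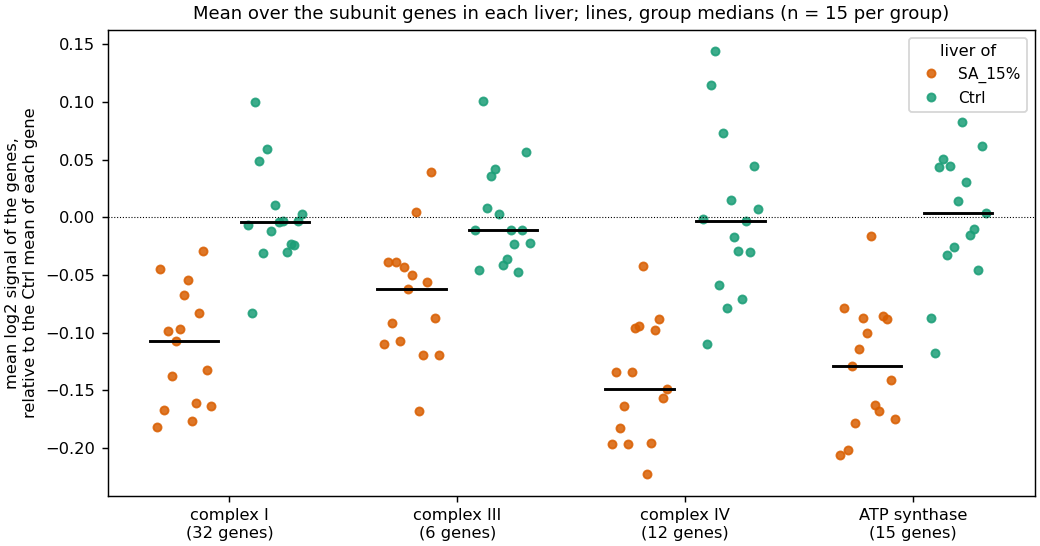
Mean log2 signal over the genes of each complex (x axis) in each liver, relative to the Ctrl mean of each gene (y axis), for 15 SA_15% and 15 Ctrl livers (points), with group medians (lines). SA_15% livers sit lower in each complex, with medians of -0.11 in complex I and -0.15 in complex IV, and overlap with Ctrl livers.

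Of the 7 genes that share the prefixes without encoding a subunit, 2 were called higher and 2 lower. Each is a share of 28.6%, against 17.1% higher and 19.4% lower of all detected probes. Ndufaf7, a methyltransferase needed to assemble complex I, was at 7.14, 7.37 and 7.66 in SA_15% livers, against 6.91, 7.17 and 7.48 in Ctrl livers (difference 0.18, SE 0.054, adjusted p = 0.011). Cox7a2l, which helps complexes III and IV join into supercomplexes, was at 9.94, 10.11 and 10.41 in SA_15% livers, against 9.56, 10.03 and 10.25 in Ctrl livers (difference 0.16, SE 0.061, adjusted p = 0.034). Both calls were lost with median centring only (adjusted p = 0.109 for Ndufaf7 and 0.563 for Cox7a2l), and that of Cox7a2l also with no detection filter (adjusted p = 0.0501) and when 8 of the 30 arrays were left out one at a time. Ndufaf4, another complex I assembly factor, was at 9.39, 9.65 and 10.09 in SA_15% livers, against 9.64, 9.84 and 10.24 in Ctrl livers (difference -0.21, SE 0.074, adjusted p = 0.026). The probe annotated to the pseudogene Ndufs5-ps was at 10.7, 10.87 and 11.02 in SA_15% livers, against 10.88, 11.05 and 11.15 in Ctrl livers (difference -0.17, SE 0.036, adjusted p = 0.00029). Whether this probe also detects the parent gene, which the annotation used here does not name, was not tested. Ndufaf1, Ndufaf3 and Ndufaf5 were not called.

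A further 10 genes did not pass the detection filter. Besides the complex IV forms named above these were Ndufs1 (a core subunit of complex I), Uqcrfs1 (the Rieske iron-sulfur protein), Uqcrq (a small complex III subunit) and Atp5k (a small ATP synthase subunit), each detected on 0 arrays. Every working chain needs Ndufs1 and Uqcrfs1, so for these only the probe can be said to give no signal above background.

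The genes that work next to the complexes were read against the same background of 19.4% lower and 17.1% higher. Of 11 genes of complex II and the electron carriers, 5 were called lower (45.5%) and 3 higher (27.3%). Lower were among others Sdhd (-0.31) and Sdhb (-0.20), subunits of complex II, and Cycs (-0.26), cytochrome c itself. Cyc1 (-0.11, adjusted p = 0.047), which is itself a subunit of complex III, was lower too. Sdhc (0.13), which anchors complex II beside Sdhd, was called higher, and so was Gpd2 (0.31), which passes electrons from cytosolic glycerol phosphate into the chain. Of 35 assembly factors, which include the Ndufaf genes above, 8 were lower (22.9%) and 7 higher (20%), shares near the background. The 4 of smallest p were Foxred1 (0.23), for complex I, and the copper chaperone Cox17 (0.19), the heme A enzyme Cox15 (0.20) and Cox19 (0.24), for complex IV, each called higher. Atpif1, the inhibitor of the ATP synthase, was called higher at 0.42 (SE 0.084, adjusted p = 0.00021), while the outer membrane channels Vdac1 (-0.20) and Vdac2 (-0.12) were called lower.

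Of 15 nuclear regulators of mitochondrial genes, 6 were called lower (40%) and 1 higher (6.67%), against 19.4% and 17.1% of all detected probes. Lower were among others Esrra (-0.29), the receptor ERR alpha, and Ppargc1a (-0.34), the coactivator PGC-1 alpha, with adjusted p of 0.00036 and 0.012. Both are drivers of respiratory chain genes. The study itself described PGC-1 alpha as reduced, but not significantly, by its own test. Polg2 (-0.23), of the mitochondrial DNA polymerase, and Tfb1m (-0.21), which modifies mitochondrial ribosomal RNA, were lower too, and Polrmt (0.14), the mitochondrial RNA polymerase, was higher. Of 13 markers of mitochondrial content, 5 were lower (38.5%) and 1 higher (7.69%). Lower were among others the chaperones Hspe1 (-0.24) and Hspd1 (-0.13) and the import receptors Tomm22 (-0.18) and Tomm70a (-0.21), and citrate synthase (Cs, 0.18) was higher.

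Genes of the mitochondrial ribosome, which translates the subunits encoded in mitochondrial DNA, were mostly not called. Of 44 genes of its large subunit 6 were lower and 3 higher, with a median of 0.01, and of 24 of its small subunit 4 were lower and 2 higher, with a median of -0.04. Those shares called lower, 13.6% and 16.7%, lay near the 19.4% of all detected probes. The shares called higher, 6.82% and 8.33%, lay below the 17.1% of all detected probes. Of 10 Coq genes, which serve the synthesis or the use of coenzyme Q, 1 was lower (10%) and 2 were higher (20%). The lower one was Coq10b (-0.34), whose product is not an enzyme of the synthesis. The share called lower among the subunit genes was not tested against any of these lists.

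Some markers of other liver cells were called higher, read against 17.1% of all detected probes. Of 8 Kupffer cell and macrophage markers 4 were called higher (50%; Vsig4 0.61, Lyz2 0.48, Clec4f 0.37 and Cd14 0.22, the last detected on 15 SA_15% and 10 Ctrl arrays) and none lower, and the log2 of their summed signal was 10.19 to 11.38 in SA_15% livers, against 9.72 to 11.11 in Ctrl livers. Of 7 endothelial markers 2 were higher (28.6%, summed 11.76 to 12.28 in SA_15% livers, against 11.54 to 12.06 in Ctrl livers), and of 3 red cell markers 2 were, with Hba-a1 at 0.77 (summed 13.48 to 14.38 in SA_15% livers, against 12.51 to 13.65 in Ctrl livers). Stellate cell markers (0 of 4 called) were at 12.24 to 12.82 in SA_15% livers, against 12.28 to 12.74 in Ctrl livers, and the 1 lymphocyte marker detected was not called. Hepatocyte markers marked the tissue as labelled, with 1 of 5 higher (Ttr), 1 lower (Serpina1a) and sums of 16.79 to 16.92 in SA_15% livers, against 16.73 to 16.9 in Ctrl livers. The probes of the markers Alb, Fgb, Cd5l, Kdr, Col1a1, Col3a1, Pdgfrb, Cd3g, Cd79a, Ptprc and Nkg7 did not pass the detection filter. The part of these cell types in the differences of the subunit genes was not tested.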

How the data were processed

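The authors deposited non-normalized bead intensity values and a detection p-value for each probe, made with GenomeStudio 2009.2 per the submitters' processing notes, and a normalized intensity table. The deposited detection p-values served as the filter. Here the intensities were quantile normalized and log2 transformed, 11329 of 25697 probes with a detection p under 0.05 on at least 15 of 30 arrays were kept, and groups were compared with limma 3.58.1 in R 4.3.3 (moderated test, two-sided, Benjamini-Hochberg over all kept probes). The code was tested on simulated data. Where a gene had several probes the brightest was used. Values by group were given for the 4 genes of smallest p per complex and direction. Isoforms and genes whose probes disagreed were named as well, some of them with the difference only. From each neighbouring list up to 4 genes of smallest p were named. Ndufa9, Sdhc, Cyc1, Ppargc1a and Cs were named beyond these rules after their values were seen. The members, lists and rules were chosen with earlier results of these data known. Alternatives covered scaling, background correction, filter, error model, thresholds, probe choice, array weights, a replicate block and each array left out. A low-dose group was not analysed here.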

Additional observations from a re-analysis of the deposited data

How the results depend on the processing

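Counts of calls kept within 1.5 times their value under neqc background correction, the deposited normalized table, both other detection filters, ANOVA without moderation, pooled error and array weights. With median centring only, the calls lower were 50 for all subunit genes, 24 in complex I, 5 in complex III, 10 in complex IV and 11 in the ATP synthase, the calls higher were 0 in all of these, and 769 of all detected probes were higher. The methods' thresholds are p under 0.001 without adjustment and 30% change, taken here as 1.3-fold either way, which a smaller percent decrease meets. With these, in a fit without the detection filter, 4 subunit genes were lower and 0 higher. Of these, 2 were in complex I (Ndufb9 and Ndufb4), 2 in the ATP synthase (Atp5a1 and Atp5e) and 0 in complexes III and IV. Of all 25697 probes on the array, detected or not, 207 were lower and 268 higher. Averaging the probes of a gene left 1 subunit gene higher and 0 in complex I. The dimmest probe, an alternative chosen after seeing the data, also left 1 and 0.

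Ndufs4 was at -0.01 with median centring only, -0.12 with the mean over probes and -0.33 with the dimmest probe. Ndufc1 was at -0.10, -0.14 and -0.32, and Cox6a1 at -0.09, -0.03 and -0.07 under the same settings. With the mean over probes Ndufs4 (adjusted p = 0.00806) and Ndufc1 (adjusted p = 0.000221) were called lower. Ndufb6 (-0.16, adjusted p = 0.00105) and Ndufv3 (-0.09, adjusted p = 0.0392) were called lower too under that setting, while Ndufa8 lost its call. Atp5g3 was at 0.02 with median centring only. Without the arrays of lowest weight (SA_15% 13 and Ctrl 06, chosen after seeing the data) Cox6a1 was at -0.01 and Cox7a2l lost its call (0.12, adjusted p = 0.0994).

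With each array left out in turn, subunit genes called lower numbered 28 to 30, and those called higher 2. Cox6a1 ran between -0.01 and 0.01. Cox7a2l lost its call without SA_15% 11, 12, 13, 14 or 15 or Ctrl 02, 06 or 07 (adjusted p at most 0.0618). Ndufa8 lost its call without SA_15% 01, 03, 04, 05, 10, 11, 12 or 13 or Ctrl 02, 03, 04, 06, 10, 11, 12, 14 or 15 (at most 0.0742).

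The groups share array numbers, but same-numbered arrays correlated at -0.07 to 0.391 in their deviations, over 0.1 in 10 of 15 pairs, and 10 of 30 arrays correlated best with their own number. That hints at something shared by number, as each array had 15 possible partners in the other group. The labels give no shared factor and not every pair exceeded 0.1, so the block was kept as an alternative. What the numbers share was not tested. With a replicate block 28 subunit genes were lower and 2 higher. Of the genes named for their small p, as isoforms or for disagreeing probes, the block ended only the call of Ndufa8 (adjusted p = 0.0653). Among the called genes that are not subunits, the adjusted p with the block was 0.0019 for Cox7a2l and 0.00044 for Ndufaf4, smaller than without it. It was 0.026 for Ndufaf7 and 0.00034 for Ndufs5-ps, larger than without it. Signal over background limits the probes with a mean log2 signal under 8, and the causes of these dependences were not tested.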
